A study of Mus musculus with 8 samples.

Results

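Interferon response genes are genes that a cell switches on when an interferon reaches its receptors. The 44 genes described here, all known in mouse as interferon-stimulated genes, were chosen by symbol. Of these, 42 were among the 23597 genes measured, and the test covered 40 of the 12100 genes that averaged at least 0.5 FPKM (fragments adjusted for the length of the gene and the depth of the library). Gbp5 and Iigp1 lay under that level, and Mx1 and Mx2 were not analysed here.

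Messenger RNA of mouse corneas was sequenced in 8 libraries. The 4 libraries named ICI came from mice given scopolamine, a muscarinic antagonist that brings on dry eye, together with ICI 118551, which blocks β2-adrenergic receptors. The 4 libraries named Scop came from mice given scopolamine alone, so dry eye was common to both groups. Each library held 4 corneas pooled on day 14, and the labels give neither strain, age nor the mice behind each pool. The p-values below therefore speak of the spread among these 8 pools. No cornea without dry eye was compared, and whole corneas hold epithelium, stroma, endothelium, nerves and immune cells together. Recovered totals ranged from 34354346 fragments in Scop_3 to 39885822 in Scop_1. Over all genes, Scop_4 and Scop_3 stood apart from their own group. For Scop_4 the chi-square per degree of freedom of the fragments was 62.6, 52.4 and 67.4 against Scop_1, Scop_2 and Scop_3. It was 16.8 to 26.9 against the 4 ICI libraries. For Scop_3 it was 51.2 and 37.4 against Scop_1 and Scop_2, and 55.3 to 76.7 against the 4 ICI libraries. Genes with many fragments weigh most in this measure, and the part of ribosomal RNA reads, given below, was not tested. Values without Scop_4 are given with the counts of members.

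Type I interferons, acting through Ifnar1 and Ifnar2, and type III interferons, acting through Ifnlr1 and Il10rb, switch on the kinases Jak1 and Tyk2, which activate factors of the STAT family. Stat2 and Irf9 take part in a complex that binds the interferon-stimulated response element, or ISRE. Type II interferon acts through Ifngr1 and Ifngr2, and its signal reaches another element, the gamma-activated site or GAS. The corneal epithelium is exposed to the outside and uses these genes against viruses such as herpes simplex.

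The elements themselves are shown for 8 members, because they include some of the most variable members and, for contrast, the pair of tested members that varied least. The sequences are RefSeq promoters of the mouse build GRCm38.p6, read in the direction of transcription, with 30 bases either side of the element. Capitals mark the element, GAAANNGAAA or its reverse complement TTTCNNTTTC for an ISRE and TTCNNNGAA for a GAS. The first 6 windows hold an ISRE and the last pair a GAS. The Isg15 window lies at chr4:156200845-156200926, Ifit1 at chr19:34640755-34640843, Ifit3 at chr19:34583343-34583446, Ifit3b at chr19:34607739-34607842, Oas1a at chr5:120907500-120907575, Oas1g at chr5:120887586-120887661, Irf1 at chr11:53769894-53769962 and Psmb8 at chr17:34198068-34198136. Isg15, Oas1a and Oas1g are on the minus strand and the other windows on the plus strand.
Isg15: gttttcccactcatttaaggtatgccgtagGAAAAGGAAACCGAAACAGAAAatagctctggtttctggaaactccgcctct
Ifit1: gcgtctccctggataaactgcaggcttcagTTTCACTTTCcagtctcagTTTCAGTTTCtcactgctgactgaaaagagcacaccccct
Ifit3: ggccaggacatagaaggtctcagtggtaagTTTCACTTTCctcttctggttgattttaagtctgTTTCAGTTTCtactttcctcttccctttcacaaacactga
Ifit3b: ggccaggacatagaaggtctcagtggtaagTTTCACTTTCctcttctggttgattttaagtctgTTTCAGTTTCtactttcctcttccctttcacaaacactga
Oas1a: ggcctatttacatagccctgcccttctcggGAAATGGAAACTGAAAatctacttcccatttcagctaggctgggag
Oas1g: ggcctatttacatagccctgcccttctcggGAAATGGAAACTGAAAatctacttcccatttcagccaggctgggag
Irf1: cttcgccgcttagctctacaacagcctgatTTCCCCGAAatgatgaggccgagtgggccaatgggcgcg
Psmb8: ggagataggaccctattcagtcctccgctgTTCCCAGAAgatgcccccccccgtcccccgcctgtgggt

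The Isg15 window held 3 overlapping ISRE matches in 1 run of capitals, beginning 78 bases before the start of transcription. Ifit3 and Ifit3b, neighbours on chromosome 19, had windows with the same letters. Both windows lie inside the spans given below for these genes, after the first base listed there. Promoters were at hand for 34 of the 44 members, each from 250 bases before to 50 after the start. An ISRE match, sought on both strands, was in 19 of them (55.9%), against 3.99% of the promoters of 27025 genes. A GAS match was in 11 of the 34 members (32.4%), against 9.55% of all promoters. Both were in 7 and neither in 11, among them Irf7, Irf9, Oasl1, Oasl2, Ifi44, Xaf1 and Ifitm1. A match is a run of letters and not a measured binding site.

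No tested interferon response gene passed the test for a difference between ICI and Scop corneas. The adjusted p of limma, the linear model used for all genes, stayed above 0.05 for each of the 40 tested members, as it did for all genes (0% passed), and among the members was lowest for Irf1 at 0.418. The levels differed much more between libraries of the same group: Isg15 had 76.5 FPKM in ICI_2 and 24.9 in ICI_3, and 80.1 FPKM in Scop_1 and 27.7 in Scop_4. Most members were high and low in the same libraries. In a pooled cornea, fewer cells of a kind and less RNA per cell cannot be told apart.

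The order of the libraries recurred from gene to gene. Within ICI, libraries ICI_1 and ICI_2 both stood above ICI_3 and ICI_4 for 37 of the 40 tested members, against 15.0% of all genes tested. The exceptions were Oasl1, Ifitm1 and Psmb8. Within Scop, each of Scop_1, Scop_2 and Scop_3 stood above Scop_4 for 36 members, against 27.3% of all genes tested, with Ifitm1, Rsad2, Gbp7 and Ifi35 as exceptions. Both orders held at once for 34 members (85% of them), against 4.22% of all genes. These orders were picked out after the values had been seen, so the shares describe these 8 libraries and carry no test.

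Deviations from a gene's mean over the 8 libraries give the same picture on the scale of log2(FPKM + 1). The median member lay 0.11 above its mean in ICI_1 and 0.34 above in ICI_2, and the deviation was -0.39 in ICI_3 and -0.29 in ICI_4. In Scop it was 0.42 in Scop_1, -0.06 in Scop_2, 0.26 in Scop_3 and -0.35 in Scop_4. Medians over all genes tested stayed between -0.03 and 0.05 in every library. ICI_3 was the lowest of all 8 libraries for 23 members and Scop_4 for 12, while Scop_1 was the highest for 21 and ICI_2 for 11. Of the 12100 genes tested, ICI_3 was lowest for 1451 and Scop_4 for 1594, and Scop_1 was highest for 2515 and ICI_2 for 1585. For the members, each group thus held libraries at both ends of the range.

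**Figure D1:**
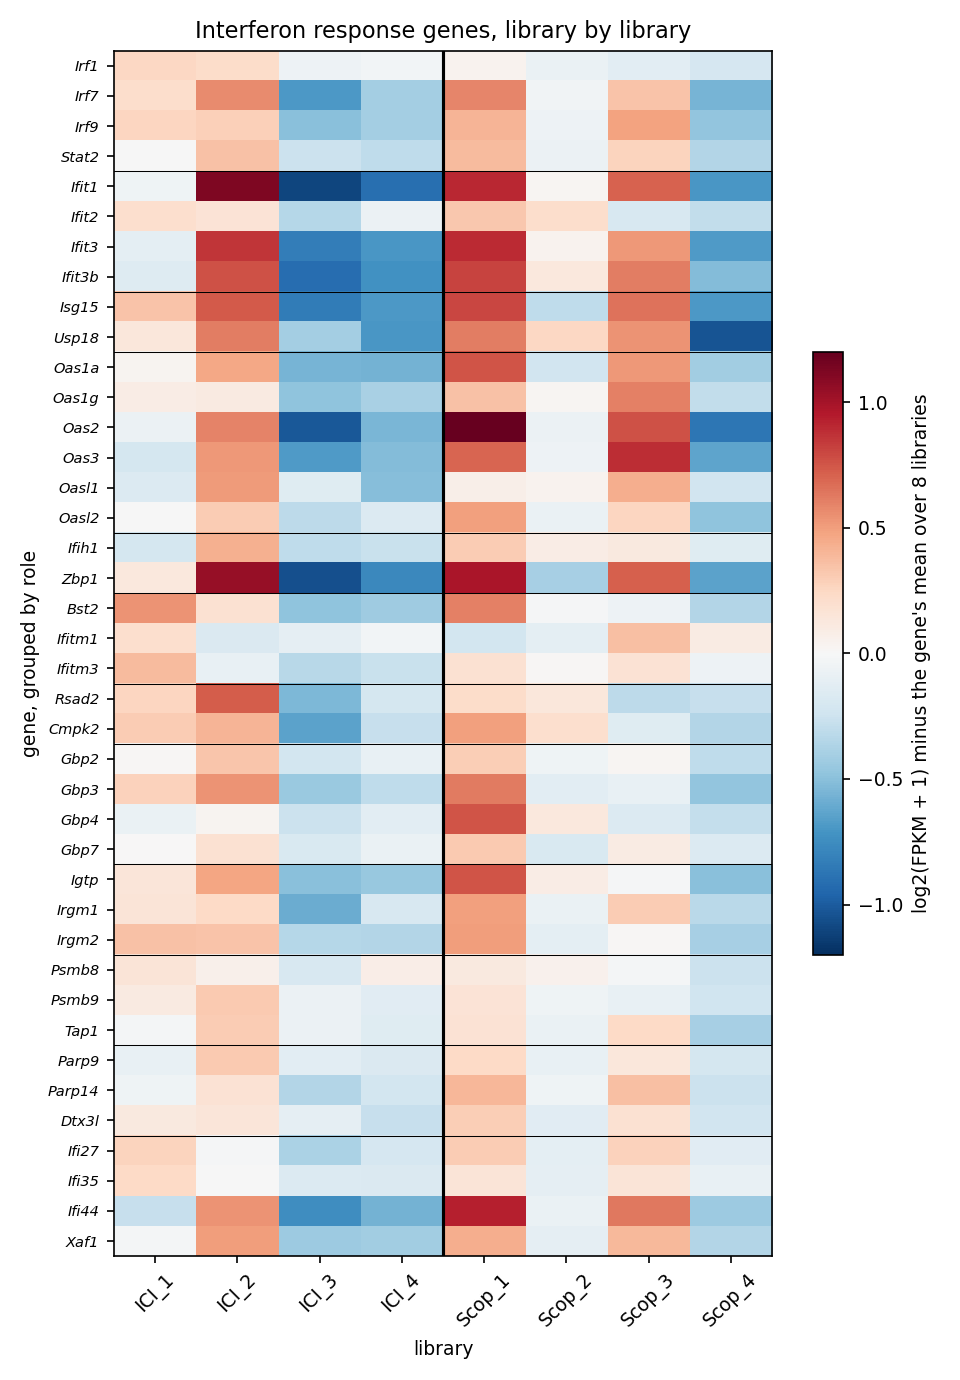
Heat map of the 40 tested interferon response genes (down) in the libraries ICI_1 to ICI_4 and Scop_1 to Scop_4 (across), coloured by log2(FPKM + 1) minus the gene's mean over the 8 libraries, with colours saturating at ±1.2. ICI_3 was below the mean for 40 of 40 genes and ICI_4 and Scop_4 for 39 each, while Scop_1 was above it for 39. Of the 12100 genes tested, 6510 were below it in ICI_3, 6426 in ICI_4 and 6688 in Scop_4, and 8022 above it in Scop_1.

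Transcription factors carry the signal to these genes. Irf7, the factor that amplifies type I interferon production, had 44.9, 57.9, 23.6 and 29.0 FPKM in ICI_1 to ICI_4, against 58.9, 37.6, 49.5 and 26.0 FPKM in Scop_1 to Scop_4. ICI_2 and Scop_1 were nearly equal at the top and ICI_3 and Scop_4 at the bottom, so the groups overlapped over almost their whole range. The log2 fold change of ICI over Scop, on the scale of log2(FPKM + 1), which understates changes of genes with few fragments, was -0.16 (SE 0.30, 95% confidence interval -0.82 to 0.50, adjusted p 0.852).

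Irf9, the DNA-binding subunit of the complex on the ISRE, had 32.9, 33.7, 19.1 and 20.4 FPKM in ICI_1 to ICI_4 and 36.6, 26.3, 38.8 and 19.4 FPKM in Scop_1 to Scop_4. Stat2, its partner, had 9.14, 12.01, 7.54 and 7.26 FPKM in the ICI libraries, against 12.3, 8.68, 11.2 and 6.98 FPKM in the Scop libraries in the same order. Both genes were low in ICI_3, ICI_4 and Scop_4. Their log2 fold changes were -0.18 (SE 0.24, adjusted p 0.791) for Irf9 and -0.11 (SE 0.18, adjusted p 0.837) for Stat2.

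Irf1, a factor induced chiefly through the GAS printed above, varied less than the other factors. Its levels were 56.5, 55.6, 45.5 and 46.3 FPKM in ICI_1 to ICI_4, against 48.9, 44.7, 43.3 and 41.1 FPKM in Scop_1 to Scop_4. Libraries of each group lay close together, and the groups overlapped only where Scop_1 exceeded ICI_3 and ICI_4. Irf1 averaged 51.0 ± 5.90 FPKM in ICI and 44.5 ± 3.29 in Scop (± SD over n = 4 libraries a group, as below), a log2 fold change of 0.19 (SE 0.084, 95% confidence interval -0.00049 to 0.37, unadjusted p 0.0505, adjusted p 0.418). Among members it had the highest fold change and the smallest SD within groups, 0.14.

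The IFIT proteins bind viral RNA and block its translation, and their genes lie together on chromosome 19, with Ifit2 at chr19:34550550-34576534, Ifit3 at chr19:34583119-34588982, Ifit3b at chr19:34607530-34613403 and Ifit1 at chr19:34640889-34650009. Ifit3 had 20.1, 40.4, 11.9 and 13.1 FPKM in ICI_1 to ICI_4, against 41.5, 22.5, 31.7 and 13.2 FPKM in Scop_1 to Scop_4. Ifit3b, its neighbouring copy, had 13.8, 27.1, 7.78 and 9 FPKM in the ICI libraries and 27.9, 17.0, 24.3 and 10.5 FPKM in the Scop libraries. The pair was high in ICI_2, Scop_1 and Scop_3 and low in ICI_3, ICI_4 and Scop_4, with the remaining libraries between. Their log2 fold changes were -0.39 (SE 0.40, 95% confidence interval -1.28 to 0.50, adjusted p 0.725) for Ifit3 and -0.51 (SE 0.37, 95% confidence interval -1.35 to 0.32, adjusted p 0.611) for Ifit3b. Transcripts of Ifit3 shared 31.7% of their 100-base stretches with those of Ifit3b, so the split of reads between them is uncertain.

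Ifit1, the cap-binding member of the family, had 6.39, 15.6, 2.56 and 3.10 FPKM in ICI_1 to ICI_4, against 13.3, 6.75, 11.5 and 3.71 FPKM in Scop_1 to Scop_4. ICI_2 exceeded ICI_3 by 6.10 times, a wider span than that between Scop_1 and Scop_4, 3.60 times, and its SD within groups was the largest of all members at 0.88. Ifit2, which also binds RNA, differed from its relatives: it ran only between 1.93 and 3.28 FPKM in ICI and between 2.04 and 3.66 FPKM in Scop, with Scop_3 among the low libraries. The Ifit2 promoter window held a GAS match and no ISRE match.

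Isg15, a ubiquitin-like modifier encoded at chr4:156199424-156200818, had 57.9, 76.5, 24.9 and 27.7 FPKM in ICI_1 to ICI_4, against 80.1, 36.7, 71.8 and 27.7 FPKM in Scop_1 to Scop_4. Usp18, the protease that removes it and that also restrains the type I receptor, had 9.05, 13.0, 5.91 and 4.66 FPKM in the ICI libraries and 13.0, 9.89, 12.3 and 3.46 FPKM in the Scop libraries. For both genes ICI_2, Scop_1 and Scop_3 were high, and ICI_3, ICI_4 and Scop_4 were low. Isg15 averaged 46.7 ± 24.8 FPKM in ICI and 54.1 ± 25.7 in Scop, a log2 fold change of -0.23 (SE 0.41, adjusted p 0.852), and the interval allowed ratios of ICI to Scop between 0.451 and 1.61. Usp18 had a log2 fold change of -0.18 (SE 0.38, adjusted p 0.874). The plot of FPKM per library shows Isg15 beside genes of smaller spread.

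**Figure D2:**
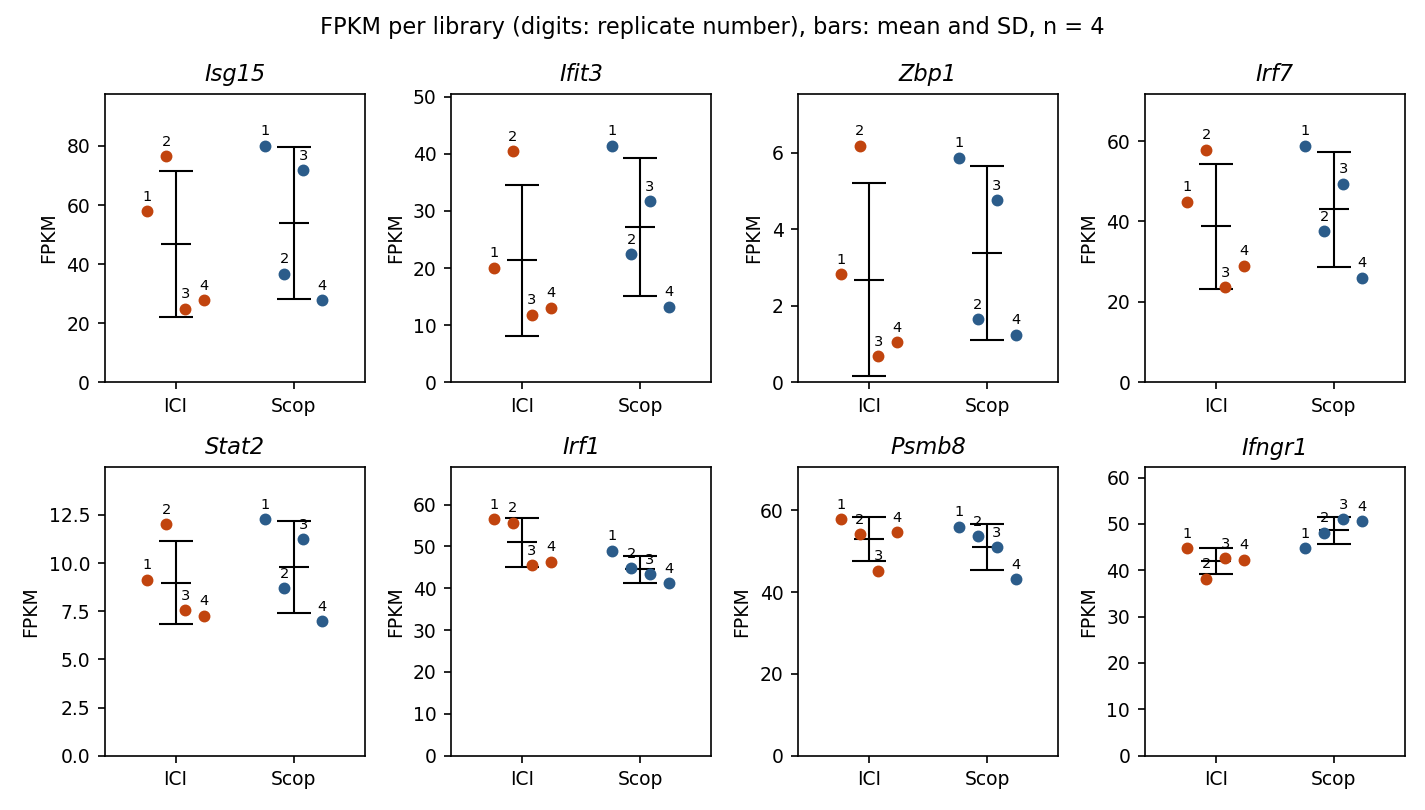
FPKM (vertical axes, from 0) of 8 genes in the 4 ICI libraries (left) and the 4 Scop libraries (right) of each panel, with digits for the replicate number and bars for the mean and SD. Isg15, Ifit3, Zbp1 and Irf7 spread widely inside both groups, while Irf1, Psmb8 and the receptor Ifngr1 stayed within narrow ranges.

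The oligoadenylate synthetase family senses double-stranded RNA. All 6 family members had a negative log2 fold change, from -0.52 for Oas2 to -0.087 for Oasl2, with none past the test. Over all genes, 6709 of the 12100 tested had a negative one. Oas1g had 2.16, 2.21, 1.13 and 1.27 FPKM in ICI_1 to ICI_4, against 2.81, 2.04, 3.52 and 1.42 FPKM in Scop_1 to Scop_4. Oas3 had 4.78, 8.57, 3.17 and 3.66 FPKM in the ICI libraries and 9.87, 5.39, 11.3 and 3.32 FPKM in the Scop libraries. In both genes Scop_3 was the highest of the 8 libraries, and Scop_4 was low, as were ICI_3 and ICI_4. The log2 fold change was -0.34 for Oas1g (SE 0.20, 95% confidence interval -0.80 to 0.11, adjusted p 0.534) and -0.44 for Oas3 (SE 0.34, 95% confidence interval -1.21 to 0.32, adjusted p 0.633).

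Oas2 ranged more widely, between 2.19 and 8.75 FPKM in ICI and between 2.54 and 13.8 FPKM in Scop. Oas1a, with 6.47 to 14.3 FPKM in ICI and 7.31 to 17.7 FPKM in Scop, was likewise low in ICI_3, ICI_4 and Scop_4. Its transcripts shared 40.9% of their 100-base stretches with Oas1g, so these counts may have been split between the copies. Oasl2 was the most abundant of the family per unit of length, averaging 52.4 ± 10.04 FPKM in ICI and 56.8 ± 16.2 in Scop. Oasl1, a translational brake on Irf7, had 22.4 FPKM in ICI_4 and 46.5 in ICI_2, against 27.4 in Scop_4 and 43.9 in Scop_3.

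Sensors of foreign nucleic acid came next. Zbp1, which detects left-handed nucleic acid and starts necroptosis, had 2.82, 6.19, 0.681 and 1.04 FPKM in ICI_1 to ICI_4, against 5.88, 1.64, 4.76 and 1.24 FPKM in Scop_1 to Scop_4. In fragments these were 240, 530, 58 and 85 in ICI and 509, 140, 355 and 97 in Scop, so the lowest value rested on 58 fragments. The highest ICI library exceeded the lowest 9.09 times and the highest Scop library the lowest 4.72 times, and the ranges of the groups nearly coincided. Zbp1 had a log2 fold change of -0.33 (SE 0.48, 95% confidence interval -1.41 to 0.75, adjusted p 0.809).

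Ifih1, the cytoplasmic sensor of long double-stranded RNA also called MDA5, had 5.22, 8.64, 4.82 and 4.99 FPKM in ICI_1 to ICI_4, against 7.87, 6.63, 6.79 and 5.49 FPKM in Scop_1 to Scop_4. ICI_2 stood alone at the top, and the other ICI libraries lay below the lowest Scop value. The log2 fold change was -0.18 (SE 0.16, 95% confidence interval -0.53 to 0.18, adjusted p 0.686).

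Restriction factors in membranes hold back viral entry or release. Of the 3 members of this kind, Ifitm3 and Bst2 kept both orders of libraries and Ifitm1 did not. Ifitm3, which blocks fusion of viruses in endosomes, had 109.8, 79.0, 66.3 and 69.8 FPKM in ICI_1 to ICI_4, against 95.2, 84.7, 94.8 and 80.4 FPKM in Scop_1 to Scop_4. Here ICI_1 was the highest of the 8 libraries and ICI_2 lay below every Scop library. Ifitm1, its relative at the cell surface and the most abundant member per unit of length, had 588, 451, 473 and 499 FPKM in the ICI libraries and 436, 469, 654 and 545 FPKM in the Scop libraries. It did not share the common order, since ICI_2 and Scop_1 were its lowest libraries.

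The log2 fold changes were -0.15 for Ifitm3 (SE 0.14, adjusted p 0.689) and -0.056 for Ifitm1 (SE 0.12, adjusted p 0.882). Bst2, or tetherin, which holds budding virions at the surface, ran from 9.77 to 20.9 FPKM in ICI and from 10.8 to 21.9 FPKM in Scop.

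Rsad2, or viperin, and Cmpk2 are neighbours that act on nucleotides, viperin making a chain-terminating nucleotide and Cmpk2 a mitochondrial kinase. Both were scarce. Rsad2 had 0.846, 1.55, 0.0604 and 0.337 FPKM in ICI_1 to ICI_4, against 0.798, 0.698, 0.237 and 0.271 FPKM in Scop_1 to Scop_4, which is 9 fragments in ICI_3 and 233 in ICI_2, and 31 in Scop_3 and 121 in Scop_1. Cmpk2 had 1.29, 1.47, 0.191 and 0.533 FPKM in the ICI libraries and 1.604, 1.13, 0.681 and 0.452 FPKM in the Scop libraries. Unlike most members, both were low in Scop_3, and the ICI range enclosed every Scop value except those of Cmpk2 in Scop_1. Their log2 fold changes were 0.12 (SE 0.25, adjusted p 0.874) for Rsad2 and -0.099 (SE 0.25, adjusted p 0.898) for Cmpk2.

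Guanylate-binding proteins and immunity-related GTPases attack vacuoles of intracellular microbes and answer strongly to type II interferon. Gbp4 had 1.29, 1.48, 1.02 and 1.21 FPKM in ICI_1 to ICI_4, against 3.06, 1.64, 1.16 and 0.98 FPKM in Scop_1 to Scop_4. Gbp7 had 1.202, 1.5, 0.935 and 1.07 FPKM in the ICI libraries and 1.74, 0.94, 1.36 and 0.962 FPKM in the Scop libraries. Scop_1 was the highest library for both, and for Gbp4 it lay well above the other 7. The log2 fold changes were -0.22 for Gbp4 (SE 0.20, adjusted p 0.688) and -0.038 for Gbp7 (SE 0.13, adjusted p 0.923).

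Gbp2 was the most abundant family member per unit of length, at 13.3 ± 2.45 FPKM in ICI and 13.1 ± 2.45 in Scop. Gbp3 ran from 0.704 to 2.36 FPKM in ICI and from 0.664 to 2.57 FPKM in Scop. Gbp5, under the level for testing, had 22, 1, 0 and 20 fragments in ICI_1 to ICI_4 and 30, 8, 20 and 19 in Scop_1 to Scop_4. These few fragments allow no statement about a difference in Gbp5.

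Irgm1, which regulates the other immunity-related GTPases, had 17.5, 18.7, 10.02 and 13.5 FPKM in ICI_1 to ICI_4, against 22.5, 14.7, 19.6 and 12.3 FPKM in Scop_1 to Scop_4. Igtp, also called Irgm3, had 5.58, 7.24, 3.19 and 3.33 FPKM in the ICI libraries and 9.03, 5.32, 4.88 and 3.19 FPKM in the Scop libraries. Both were lowest in ICI_3 and Scop_4, and the group ranges overlapped. The log2 fold changes were -0.20 for Irgm1 (SE 0.21, adjusted p 0.737) and -0.17 for Igtp (SE 0.28, adjusted p 0.835). Irgm2 averaged 4.11 ± 1.38 FPKM in ICI and 4.11 ± 1.38 in Scop. Iigp1, under the level for testing, had 131, 16, 22 and 66 fragments in ICI_1 to ICI_4 and 76, 41, 38 and 40 in Scop_1 to Scop_4.

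Genes of antigen processing, which make and load peptides for MHC class I, varied less than most other members. Psmb9, an immunoproteasome subunit, had 14.6, 17.0, 12.8 and 12.2 FPKM in ICI_1 to ICI_4, against 15.2, 13.0, 12.6 and 11.3 FPKM in Scop_1 to Scop_4. Psmb8, another such subunit, had 57.8, 54.1, 45.2 and 54.6 FPKM in the ICI libraries and 56.0, 53.7, 50.9 and 43.1 FPKM in the Scop libraries. The highest Psmb8 value exceeded the lowest 1.28 times in ICI and 1.30 times in Scop, and Scop_4 was the lowest for both genes. Psmb9 had a log2 fold change of 0.10 (SE 0.11, 95% confidence interval -0.14 to 0.35, adjusted p 0.73) and Psmb8 of 0.056 (SE 0.094, 95% confidence interval -0.15 to 0.26, adjusted p 0.84). Tap1, the peptide transporter, ran from 13.7 to 19.0 FPKM in ICI and from 11.3 to 18.1 FPKM in Scop. Exons of Psmb9 and Tap1 overlap on opposite strands over 212 bases. Those of Psmb8 overlap Gm20496 on the opposite strand over 498 bases, 14.7% of its exonic bases. Strand use in counting is not given in the sources used here.

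Parp14, an ADP-ribosyltransferase, had 7.16, 8.53, 5.63 and 6.24 FPKM in ICI_1 to ICI_4, against 10.1, 7.13, 9.82 and 6.06 FPKM in Scop_1 to Scop_4. Dtx3l, a ubiquitin ligase that works with Parp9, had 19.0, 19.5, 16.2 and 14.3 FPKM in the ICI libraries and 21.8, 15.9, 20.1 and 14.7 FPKM in the Scop libraries. Scop_1 was the highest library for both, with Scop_3 close behind. Their log2 fold changes were -0.22 for Parp14 (SE 0.16, adjusted p 0.608) and -0.06 for Dtx3l (SE 0.13, adjusted p 0.881). Parp9, whose exons overlap those of Dtx3l on the opposite strand over 458 bases, averaged 23.7 ± 4.14 FPKM in ICI and 24.3 ± 3.60 in Scop.

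The last 4 members share no single role. Ifi44, a cytoplasmic protein of the antiviral response, had 1.40, 3.20, 0.728 and 0.963 FPKM in ICI_1 to ICI_4, against 4.55, 1.74, 3.496 and 1.14 FPKM in Scop_1 to Scop_4. Ifi27, a small membrane protein, had 82.0, 67.2, 52.1 and 59.1 FPKM in the ICI libraries and 84.2, 62.7, 82.7 and 61.6 FPKM in the Scop libraries. Ifi44 was highest in Scop_1, Scop_3 and ICI_2, and Ifi27 in Scop_1, Scop_3 and ICI_1. Ifi44 had the lowest log2 fold change of all members, -0.52 (SE 0.33, 95% confidence interval -1.27 to 0.22, adjusted p 0.561), and Ifi27 had -0.16 (SE 0.15, adjusted p 0.686). Xaf1, a pro-apoptotic protein, ran from 2.22 to 5.16 FPKM in ICI and from 2.41 to 4.91 FPKM in Scop. Ifi35, a partner of the interferon-induced protein Nmi, ran from 36.3 to 48.5 FPKM in ICI and from 37.9 to 45.9 FPKM in Scop. Exons of Ifi35 overlap Gm11626 on the opposite strand over 290 bases, 16.8% of its exonic bases.

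Set side by side, 33 of the 40 tested members had a negative log2 fold change and 7 a positive one. Of the 12100 genes tested, 6709 had a negative one and 5391 a positive one. The members with a positive one were Irf1, Rsad2, Psmb9, Psmb8, Gbp3, Tap1 and Gbp2. The median was -0.16, against -0.02 over all genes tested. At an adjusted p under 0.05 limma called 0 members higher and 0 lower, as it did 0% of all genes in each direction. At an unadjusted p under 0.05 it called 0 of 40 members, against 12.0% of all genes (4.56% higher and 7.46% lower). That split of all genes moved with the scaling, to 729 higher and 716 lower after quantile normalisation and 713 higher and 702 lower with limma-voom, against 552 higher and 903 lower as deposited. No member had groups without overlap, against 6.98% of all genes.

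The negative median moved with single libraries. It was -0.0036 with 21 negative members without Scop_1, -0.03 without ICI_3, -0.05 without ICI_4 and -0.08 without Scop_3, and -0.26 without ICI_2 and -0.26 without Scop_4. For 28 of the 40 tested members the standard error exceeded the size of the log2 fold change. The widest 95% confidence intervals ran from -1.55 to 0.61 for Ifit1 and from -1.41 to 0.75 for Zbp1. Changes of the sizes inside these intervals are not excluded by the values.

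**Figure D3:**
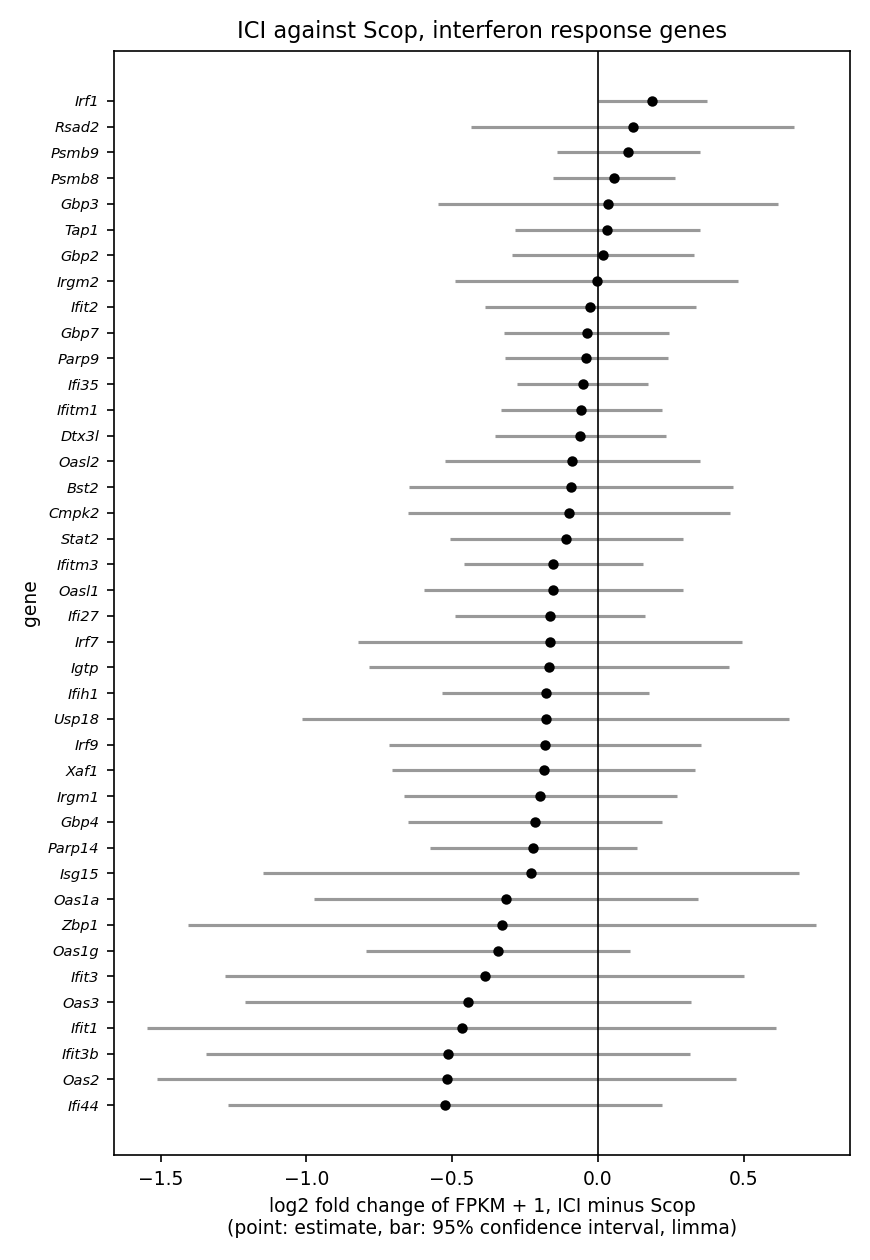
Log2 fold change of FPKM + 1, ICI minus Scop (horizontal axis), for each of the 40 tested interferon response genes, sorted from the highest at the top, with limma's 95% confidence intervals as bars. Estimates run from 0.19 for Irf1 to -0.52 for Ifi44, and every interval includes 0.

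The spread itself was measured as the SD within groups of log2(FPKM + 1). Its median over the 40 tested members was 0.37, against 0.11 over all genes tested, and 32 members exceeded 0.236, the 90th percentile of all genes. Among genes of at least 5 FPKM, 25 of 29 members exceeded the 90th percentile of 0.191. As a coefficient of variation the median member varied by 31.7% in ICI and 31.0% in Scop, against 8.49% in ICI and 9.36% in Scop for the median gene. The roles differed in this measure. Its median was 0.72 for Isg15 and Usp18, 0.70 for the IFIT family, 0.45 for the oligoadenylate synthetases and 0.29 for the guanylate-binding proteins, and 0.18 for Psmb8, Psmb9 and Tap1.

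Members with an ISRE match in the promoter window had a median SD of 0.44 (18 tested members, range 0.20 to 0.88), and those with a window and no match 0.28 (15 tested members, range 0.14 to 0.60). The ranges overlapped widely. Ifi44 and Irf7 were among the more variable members without a match in this window. On the other side, Gbp7 had an ISRE match and the lowest SD among the members with one.

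**Figure D4:**
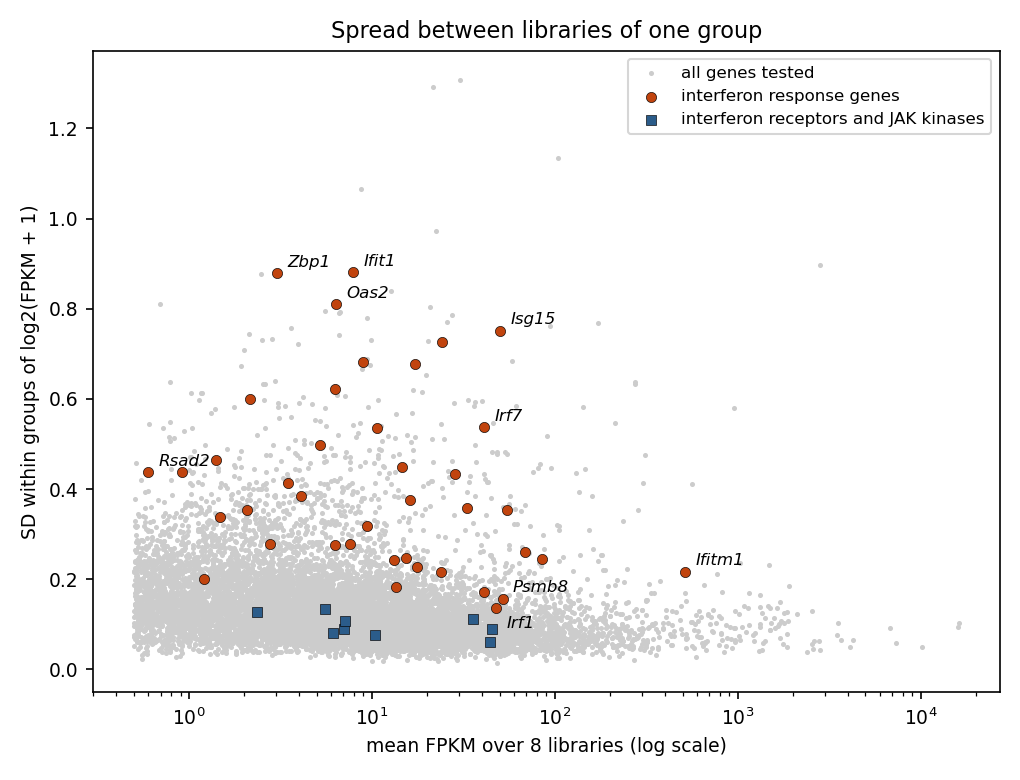
SD within groups of log2(FPKM + 1) (vertical axis) against mean FPKM over the 8 libraries (horizontal axis, log scale), for all 12100 genes tested (grey), the 40 interferon response genes (orange circles) and 9 receptor and kinase genes (blue squares). Ifit1 at 0.88 and Zbp1 at 0.88 lie near the top of the cloud, while Irf1 at 0.14 and the receptors lie near the middle of all genes.

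The genes that lead up to these varied less between libraries. Of 12 interferon genes sought, Ifng, Ifne, Ifnk and Ifnz were measured and none averaged 0.5 FPKM. Ifng, the type II interferon, is listed at 0 in all 8 libraries. Transcripts of a secreted ligand this scarce say nothing of its protein.

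For the 6 receptor genes the median SD within groups was 0.090 on the log2 scale, and 0 of 6 exceeded the 90th percentile of all genes. Ifngr1, the ligand-binding chain for type II interferon, had 44.7, 38.2, 42.6 and 42.3 FPKM in ICI_1 to ICI_4, against 44.7, 48.1, 51.0 and 50.5 FPKM in Scop_1 to Scop_4. The groups did not overlap, but only just, since ICI_1 had 44.7333 FPKM and Scop_1 44.7357. Ifngr1 averaged 42.0 ± 2.75 FPKM in ICI and 48.6 ± 2.88 in Scop, a log2 fold change of -0.21 (SE 0.062, 95% confidence interval -0.35 to -0.069) that missed the threshold at an adjusted p of 0.279. Its partner Ifngr2 had -0.091 (SE 0.072).

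For the type I receptor the log2 fold changes were 0.013 for Ifnar1 (SE 0.068) and 0.10 for Ifnar2 (SE 0.092). For the type III receptor they were -0.036 for Ifnlr1 (SE 0.071) and -0.069 for Il10rb (SE 0.063). The kinases had -0.046 for Jak1 (SE 0.051), -0.14 for Jak2 (SE 0.09) and -0.096 for Tyk2 (SE 0.077), and none exceeded the 90th percentile of spread.

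Among 7 negative regulators of this signalling, 0 passed the test. Socs3, an inhibitor of JAK kinases that many cytokines induce, had 8.59, 4.09, 4.30 and 3.74 FPKM in ICI_1 to ICI_4, against 3.28, 4.04, 2.47 and 2.79 FPKM in Scop_1 to Scop_4. ICI_1 stood far above the other 7 libraries, and ICI_4 lay below Scop_2. The log2 fold change was 0.53 (SE 0.21, adjusted p 0.362). Ptpn2, a phosphatase of JAK kinases, averaged 3.21 ± 0.253 FPKM in ICI and 3.72 ± 0.108 in Scop, a log2 fold change of -0.16 (SE 0.067, adjusted p 0.372).

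Of 17 genes that lead to interferon production, 11 were tested, with 0 past the test. All 11 had a negative log2 fold change, from -0.19 for the DNA sensor Cgas to -0.034 for the RNA sensor Rigi. So had 6709 of the 12100 genes tested, and for 8 of the 11 the standard error exceeded the size of the log2 fold change. Irf5, a factor of the same step, had -0.17 (SE 0.096, adjusted p 0.526). Dhx58, a sensor that interferon itself induces, was the one of them with a spread of 0.46, and it stood at 5.66, 7.97, 3.57 and 3.56 FPKM in ICI_1 to ICI_4, against 7.75, 4.43, 7.30 and 3.67 FPKM in Scop_1 to Scop_4. The libraries high for Dhx58 were those high for Isg15.

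A list of 48 further interferon-induced genes, of which 37 were tested, showed the same order less strictly. ICI_1 and ICI_2 both exceeded ICI_3 and ICI_4 for 26 of 37, and Scop_1, Scop_2 and Scop_3 all exceeded Scop_4 for 32 of 37. Their median deviation was -0.0036 in ICI_1, 0.18 in ICI_2, -0.19 in ICI_3 and -0.16 in ICI_4, and 0.27 in Scop_1, -0.0069 in Scop_2, 0.14 in Scop_3 and -0.17 in Scop_4. The list shares pathways with the members and is no independent check of them. At an adjusted p under 0.05 limma called 0 of the 37. At an unadjusted p under 0.05 it called 0 of the 37 higher and 3 lower, against 4.56% higher and 7.46% lower of all genes. The 3 were Psmb10, Ly6e and Samd9l, a number close to the share of all genes.

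Psmb10, the remaining immunoproteasome subunit, had 11.4, 13.0, 11.1 and 11.9 FPKM in ICI_1 to ICI_4, against 15.9, 14.3, 14.3 and 12.8 FPKM in Scop_1 to Scop_4. Only ICI_2 reached into the Scop range. The log2 fold change was -0.25 (SE 0.074, adjusted p 0.267). Ly6e, a membrane-anchored inhibitor of coronavirus fusion, had -0.24 (SE 0.095, adjusted p 0.354), and Samd9l, an antiviral inhibitor of translation, had -0.32 (SE 0.13, adjusted p 0.382).

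Markers of the cells in the pools varied between libraries too. The 8 corneal epithelial markers summed to between 34969 and 36953 FPKM in ICI and between 34588 and 40185 FPKM in Scop. This was the highest of the marker sums in every library, but sums over chosen markers do not measure the share of a cell type. The 8 keratocyte markers summed to 2533, 2357, 2006 and 1872 FPKM in ICI_1 to ICI_4, against 2140, 1869, 717 and 2072 FPKM in Scop_1 to Scop_4. ICI_1 and ICI_2 were thus high in ICI for stroma as for the interferon response genes, whereas Scop_3, high for most members, was the lowest of all in stroma. The 5 corneal endothelial markers summed to 64.9 to 155 FPKM in ICI, with ICI_1 highest, and to 41.3 to 104 FPKM in Scop, with Scop_3 lowest. The 3 conjunctival markers measured (Krt4, Krt13 and Krt19, of 4 sought) summed to 1191 to 1259 FPKM in ICI, and to 1114, 1282, 1857 and 1232 FPKM in Scop_1 to Scop_4. All 3 were highest of the 8 libraries in Scop_3, a library high for most members.

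Leukocyte markers summed to 62.4, 58.1, 56.1 and 57.9 FPKM in ICI_1 to ICI_4, against 66.3, 53.2, 47.1 and 53.3 FPKM in Scop_1 to Scop_4 over the 13 of 14 measured. Ncr1, which defines natural killer cells, is listed at 0 everywhere. The pan-leukocyte gene Ptprc stayed at or under 0.255 FPKM, and the T cell genes Cd3e and Cd3d at or under 0.132 and 0.101 FPKM. Scop_3 was high for the interferon response genes and lowest for the leukocyte sum. The 5 markers of plasmacytoid dendritic cells, the main makers of type I interferon, summed to 2.01 to 2.31 FPKM in ICI and 1.91 to 2.78 FPKM in Scop. Only 2 of the 5 averaged at least 0.5 FPKM, so these sums do not measure the presence of such cells. Cd300c is listed at 0 everywhere and Siglech at or under 0.0265 FPKM.

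Loci that collect ribosomal RNA reads (Gm26917, AY036118 and Lars2) summed to 3826 to 3995 FPKM in ICI, and to 717, 954 and 1177 FPKM in Scop_1, Scop_2 and Scop_3 and 5113 FPKM in Scop_4. Scop_4, the lowest Scop library for 36 of the 40 tested members, had the highest sum of all, while ICI_4 was the highest for AY036118 and Lars2. The sums of the 4 ICI libraries lay close together, and their levels of the members did not. The part of cell mixture and of ribosomal RNA reads in the levels of the interferon response genes was not tested.

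**Figure D5:**
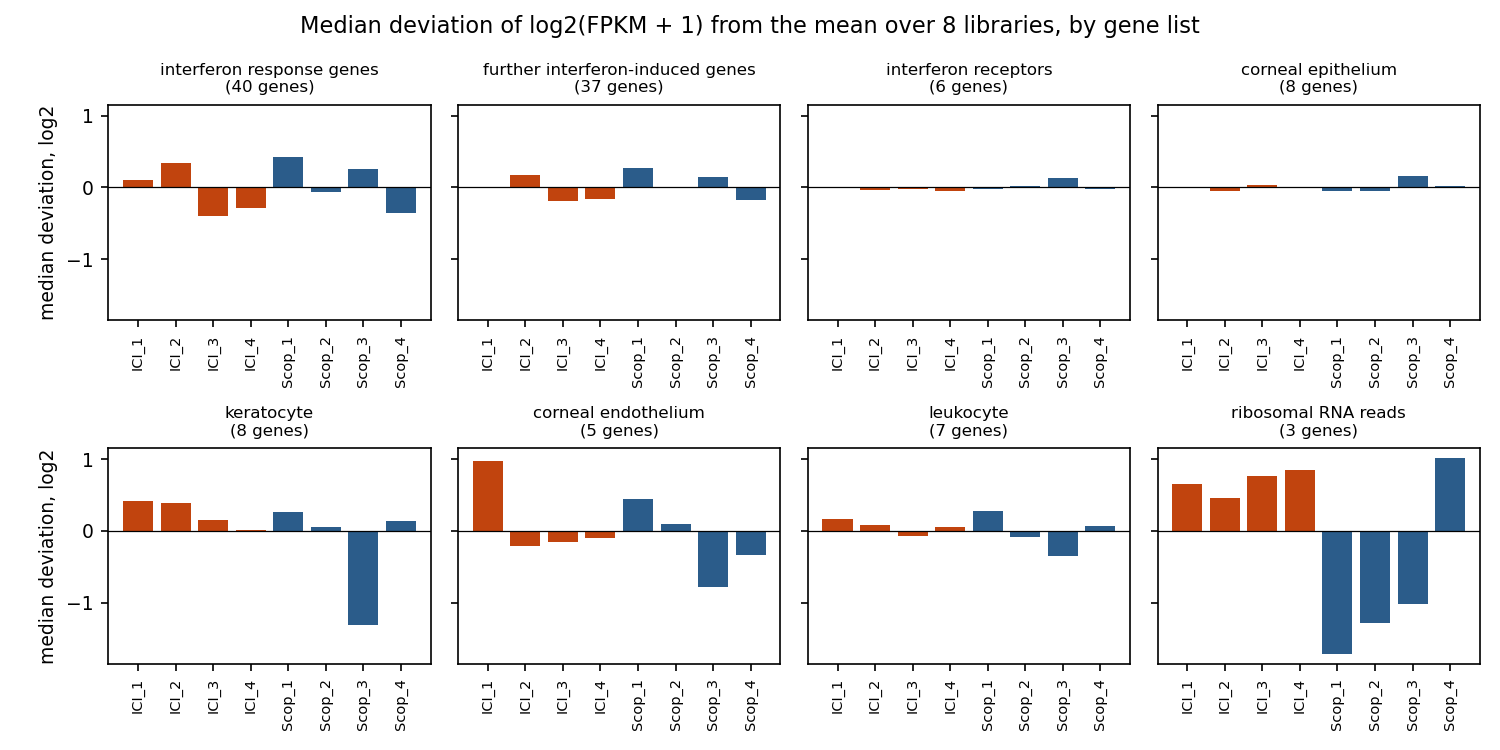
Median deviation of log2(FPKM + 1) from each gene's mean over the 8 libraries (vertical axes), per library, for 8 gene lists, with ICI libraries left (orange) and Scop libraries right (blue) in each panel. The interferon response genes run from -0.39 in ICI_3 to 0.42 in Scop_1, and the interferon receptors stay within -0.04 and 0.14.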

How the data were processed

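An RNeasy kit, a VAHTS library kit and a NovaSeq were used, per the labels' protocols. The build mm10 and the tools fastp, HISAT2 and HTSeq are named, per the submitters' processing notes. Annotation, versions and strand setting were not given in the sources used here. The authors deposited FPKM in 1 table, with no scaling between libraries stated. Column titles gave group and replicate.

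Whole fragments were recovered from steps in the FPKM for 99.8% of genes (tolerances 5e-13 for a ratio, 0.01 for a whole number) and for none of 57, Ifit1 among them. Fragments with a common factor across libraries come out too low. Recovered fragments served for depth, low values, the duplicate check and limma-voom. The lowest chi-square per degree of freedom between libraries was 12.5 (Scop_1 and Scop_2), so no pair looked duplicated.

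The test was limma 3.58.1 in R 4.3.3 (eBayes with trend) on log2(FPKM + 1) over the 12100 genes averaging at least 0.5 FPKM, two-sided, with Benjamini-Hochberg adjustment over all of them and a threshold of 0.05. It was also run on simulated data whose spread followed the middle of all genes. Members spread more widely (median SD within groups 0.37, against 0.11 over all genes tested), so that run does not show how the test performs for them. Errors of log2 fold changes and 95% confidence intervals are limma's, and the SD within groups is its residual SD.

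Members and gene lists were chosen with earlier results of these data known. Per-library values are given for up to 2 tested members per role with the smallest p, for Irf1, Irf7, Irf9 and Stat2, and in the pathway lists for up to 2 genes with the smallest p, the receptors and the kinases. Some genes of these lists are not reported here. Per-library values of Ifit1, Zbp1's fragments, Dhx58 and Samd9l's fold change, and all orders of libraries, were picked after values were seen. So were the genes under other observations. Promoters are RefSeq's (GRCm38.p6). For 27 of the 38 promoter windows of members, the first 30 transcribed bases were found in a GENCODE M21 transcript of the gene. Shared stretches and exon overlaps come from GENCODE M21.

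Alternatives were pseudocounts of 0.1 and 5, no filter, a filter of 5 FPKM, median-ratio, common-sum and quantile scaling, robust eBayes, the replicate number as a block, and omission of each library in turn. Limma-voom on recovered fragments with median-ratio factors was added after the data had been seen.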

Additional observations from a re-analysis of the deposited data

Results flagged for a closer look

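In 8 of 210 groups of 4 libraries (each listed gene in ICI and in Scop), 1 library lay further from the rest than Dixon's limit allows at the 95% level. Chance does so in about 1 in 20 groups, and only 2 of the 80 groups of tested interferon response genes were among them. ICI_2 was high in 4 of these 8. It had 8.64 FPKM of Ifih1, with the next ICI library at 5.22, and 29.9 FPKM of Parp9, with the next at 22.3. In the same library Tlr3, an endosomal sensor of double-stranded RNA, stood at 5.55 FPKM with the next at 4.21, and Ddx60, a helicase of the antiviral response, at 10.9 FPKM with the next at 5.57.

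ICI_1 was high for Socs3 at 8.59 FPKM, with the next ICI library at 4.30. ICI_3 was low for Ly6e at 86.3 FPKM, with the next ICI library at 100.9. In Scop, Scop_3 was low for Ptpn2 at 3.55 FPKM, with the next at 3.76, and Scop_1 was high for Tap2, a subunit of the peptide transporter, at 15.5 FPKM, with the next at 13.2.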

How the results depend on the processing

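In every alternative run, 0 of the tested interferon response genes passed an adjusted p under 0.05 in limma, and the median log2 fold change of the members stayed negative. Over all genes, leaving out 1 library gave 0 to 4 genes higher in ICI and 0 to 2 lower (4 and 2 without Scop_4, 1 lower without Scop_1, 1 lower without Scop_3). At an unadjusted p under 0.05, 1 member, Irf1, was higher in ICI under median-ratio scaling, quantile normalisation, robust eBayes and limma-voom, and its adjusted p was 0.349 to 0.407 there. Of all genes, 674, 729, 546 and 713 were higher in these runs, in that order. Leaving out 1 library gave 0 to 1 members higher and 0 to 5 lower at that level. Without ICI_2, 5 of 40 were lower (Ifi44, Ifih1, Ifit1, Ifit3b and Oasl1), against 616 of the 12100 genes tested. Without Scop_4, 5 of 40 were lower (Ifi44, Oas1g, Oas2, Oas3 and Parp14), against 766 of all genes. Without ICI_1, 1 was lower (Ifitm3), against 885 of all genes. Irf1 was higher without ICI_3, ICI_4 or Scop_1, where 448, 545 and 663 of all genes were higher. The number of negative members was 21 to 37, and the median -0.26 to -0.0036. All genes higher at that level numbered 862 without a filter and 318 with a filter of 5 FPKM, against 552. With a pseudocount of 5 the median SD within groups of the tested members was 0.224. The median over all genes at that pseudocount is not given here, so this value is not compared with all genes.

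Among log2 fold changes, that of Rsad2 was -0.12 with limma-voom. Left-out libraries also turned signs: Isg15 -0.51 to 0.015, Usp18 -0.56 to 0.023, Ifitm1 -0.14 to 0.054, Rsad2 -0.10 to 0.32, Cmpk2 -0.25 to 0.098, Gbp7 -0.11 to 0.061, Igtp -0.36 to 0.057, Psmb8 -0.021 to 0.13, Dtx3l -0.15 to 0.030, Irf7 -0.38 to 0.039, Stat2 -0.24 to 0.0016, Ifnar1 -0.024 to 0.063 and Ifnlr1 -0.084 to 0.0036. The cause was not tested. With the replicate number as a block, Irf1 was again the 1 member at an unadjusted p under 0.05 (adjusted p 0.309). Of all genes, 643 were higher and 869 lower at that level with the block. The labels do not say whether equal numbers pair the libraries. Deviations of same-numbered libraries correlated between -0.0093 and 0.29, with 2 of the 4 values under 0.1. So few values, which any difference between libraries can move, cannot decide whether the libraries are paired. Limma-voom was run with median-ratio factors, chosen after seeing the data, in place of the planned TMM, and gave no value for Ifit1. Depth limits Rsad2, Gbp5 and Iigp1, which rest on few fragments.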

Other observations

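Beta-2-microglobulin and the partners of the members in antigen presentation were split in their spread. B2m, the light chain of MHC class I, had 166, 174, 115 and 138 FPKM in ICI_1 to ICI_4, against 253, 173, 126 and 126 FPKM in Scop_1 to Scop_4. Scop_1 stood well above the other 7 libraries. Psme1, a subunit of the proteasome activator that interferon induces, had 120.1 ± 1.43 FPKM in ICI and 121 ± 6.78 FPKM in Scop, and Tapbp, the tapasin that loads peptides, had 70.5 ± 2.63 FPKM in ICI and 72.0 ± 3.38 FPKM in Scop. The SD within groups of log2(FPKM + 1) was 0.39 for B2m, 0.059 for Psme1 and 0.060 for Tapbp. These genes were picked after their values were seen.

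Apol9a and Apol9b, apolipoprotein L genes that interferon induces in mouse, and Rtp4, a receptor chaperone, varied as widely as the IFIT family. They too were picked after values were seen, and Apol9a had the highest SD within groups, 0.74, of the 37 further interferon-induced genes tested. Apol9a had 6.24, 11.02, 2.78 and 3.24 FPKM in ICI_1 to ICI_4, against 11.8, 5.94, 8.73 and 3.05 FPKM in Scop_1 to Scop_4. Rtp4 had 11.7, 12.3, 4.08 and 4.93 FPKM in the ICI libraries and 16.3, 9.54, 13.9 and 5.55 FPKM in the Scop libraries. ICI_3, ICI_4 and Scop_4 were the lowest libraries for both. The chemokines Cxcl9 and Cxcl10, typical products of type II interferon, averaged under 0.5 FPKM, with Cxcl10 at 0.083 ± 0.0975 FPKM in ICI and 0.230 ± 0.184 FPKM in Scop.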
